A study of Mus musculus with 8 samples.

Results

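The genes described here are 38 germline genes listed together as silenced by DNA methylation in somatic cells of the mouse. Not every member was silent in the untreated cells studied here, as set out below. They were chosen by name: a gene belonged to the set if its symbol in either of the 2 deposited expression tables was on the list. This list and the other gene lists used here were chosen with earlier results of these data known. Shares of the set given beside shares of all genes are therefore descriptions and not independent support. The search found 36 of the 38 names among 32693 genes listed in either table. Rpl10l, a ribosomal protein gene, and Zfp42, a zinc finger gene of pluripotent cells, were in neither table and were not analysed here.

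Hair matrix keratinocytes, the proliferating cells of the hair bulb from which the shaft grows, were sorted from mouse skin at postnatal day 4.5 and their RNA was sequenced. The question was how loss of the DNA dioxygenases Tet2 and Tet3 changes gene expression in these cells, with and without a drug that lowers DNA methylation. There were 4 groups of 2 libraries, 8 libraries in all. The labels do not say whether the libraries of a group came from separate mice, so p-values measure only the spread between these libraries. The first group was Tet2/Tet3 DKO, Krt14-Cre (double knockout, DKO here) given 50 µg 5-aza under the skin at postnatal day 2.5, and the second was WT given the same dose at the same age. The third group was untreated DKO and the fourth untreated WT, and all 4 groups were taken at the same age. Cre driven by Krt14, a keratin gene of basal epithelial cells, acts in the epithelial lineage, so other cells of the skin keep both Tet genes. Of the 2 library kits in the labels, 1 takes messenger RNA and the other total RNA depleted of ribosomal RNA, and no group is tied to either. They give neither the markers used in the sort nor the strand setting of the counting.

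In somatic tissues the CpG-rich promoters of many such genes gain methylation around implantation, when the embryo's de novo methyltransferases are active. The maintenance enzyme Dnmt1 copies that methylation at each division. Repressor complexes with E2F6, MGA and MAX also bind many of them, at E2F-like sites and E-boxes. 5-aza is incorporated into DNA and traps methyltransferases, so methylation is lost as cells divide, whereas TET enzymes oxidise 5-methylcytosine, the first step of active demethylation. DNA methylation itself was not analysed here. The products work in the piRNA pathway, which silences transposons through small RNAs bound by PIWI proteins, in pairing and recombination of meiotic chromosomes, and in the making of sperm and eggs.

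The library totals were inferred from the deposited values, taken as FPKM. They were 39493929 to 58353167 reads after 5-aza and 19528602 to 22837436 reads without treatment. Of these the listed genes held 38.4% to 42.4% and 55.8% to 62.0%. Values are FPKM as deposited, that is, fragments per kilobase of gene length scaled to the library's total. The totals may count different kinds of reads in the 2 tables, as set out below, so these shares and FPKM may not be alike between treatments. Hair matrix markers were present in every library: 9 of 10 were listed, with summed levels of 356 and 311 FPKM in 5-aza DKO, 284 and 316 FPKM in 5-aza WT, 279 and 312 FPKM in untreated DKO, and 220 and 296 FPKM in untreated WT. Of 8 defining germ cell markers, 6 were listed after 5-aza and 5 without treatment. Their sum was 0.902 and 0.785 FPKM in 5-aza DKO, 0.413 and 0.482 FPKM in 5-aza WT, 0.550 and 0.603 FPKM in untreated DKO, and 0.614 and 0.836 FPKM in untreated WT. Figla and Nanos2 were in neither table. Nanos3 alone made up most of this sum in every library, and the marker Dazl is itself a member. The sum is thus not a measure independent of the set. The RNA helicase gene Ddx4, a germ cell marker and a member, had 0 to 16 reads in a library. The deleted gene Tet3 was at 6.54 and 5.99 FPKM in 5-aza DKO against 10.4 and 11.5 FPKM in 5-aza WT, and at 6.92 and 7.31 FPKM in untreated DKO against 11.8 and 11.4 FPKM in untreated WT. Tet2, the other deleted gene, was at 1.58 and 1.56 FPKM in 5-aza DKO against 1.81 and 2.00 FPKM in 5-aza WT, and at 2.72 and 2.55 FPKM in untreated DKO against 3.23 and 3.28 FPKM in untreated WT, lower in DKO by less than Tet3. These are levels over the whole gene, and the deleted parts were not looked at. The 2 untreated libraries within each genotype differed in sex-linked RNA, in the same way in both genotypes. Xist was at 74.4 and 1.19 FPKM in untreated DKO and at 82.1 and 0.327 FPKM in untreated WT, and the Y-linked Ddx3y at 0.0755 and 2.90 FPKM in untreated DKO and at 0.0155 and 3.50 FPKM in untreated WT. In contrast, all 4 5-aza libraries held both Xist, at 3.65 to 23.1 FPKM, and Ddx3y, at 0.917 to 2.08 FPKM.

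The promoters of the set were rich in CpG. RefSeq windows of 300 bases around the start (build GRCm38.p6) were found for 32 of the 36 members, 41 windows in all. A window held a median of 19 CpG, against 7 over all 32851 promoter windows, and the median observed over expected CpG was 0.713 against 0.384. The letters CACGTG, the core of an E-box, stood in 21 of the 41 windows (51.2%), against 7.15% of all windows. TCCCGC, the core of an E2F-like site, searched on both strands and thus also as GCGGGA, stood in 16 windows (39.0%), against 20.0% of all. CACGTG reads the same on both strands, and the motifs can share at most 1 base where they meet. Windows with both numbered 9 (22.0%, against 1.99% of all), and windows with either 28 (68.3%, against 25.1%). Both motifs contain a CpG, and the shares of all windows were not matched for CpG or GC content (median GC 60.3% in the members, 52.7% in all). Some members have several overlapping windows, each counted. By member, 17 of 32 had CACGTG, 14 had TCCCGC and 23 had either. A window with neither motif says only that these letters are not in those 300 bases.

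**Figure D1:**
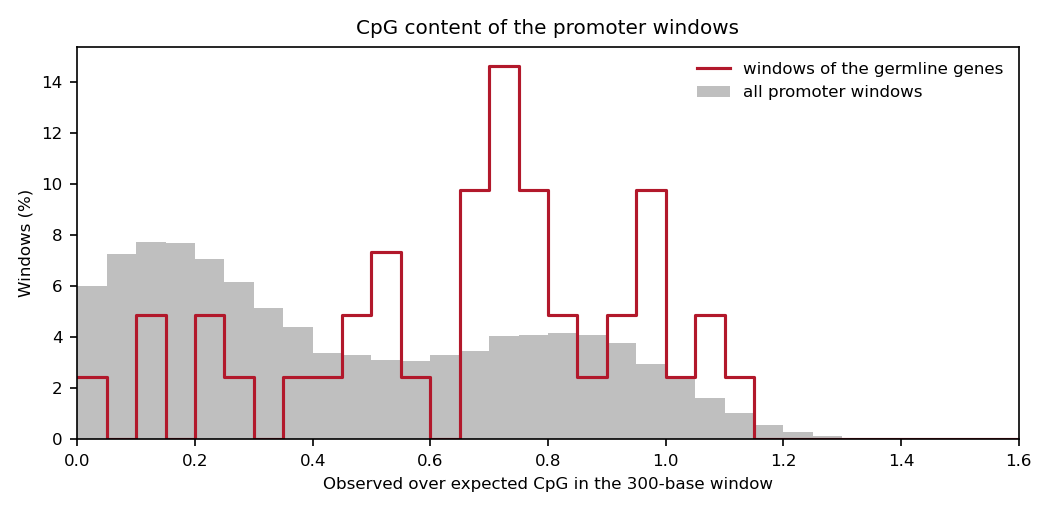
Observed over expected CpG (x axis) in the 300-base RefSeq promoter windows, as a percent of windows in each bin (y axis), for the 41 windows of the germline genes (red line) and for all 32851 windows (grey). The windows of the germline genes lie mostly on the right, with a median of 0.713 against 0.384 for all windows.

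The windows of 6 members are printed here, from 5′ to 3′ on the gene's own strand, with every match to either motif in capitals. The first 5 belong to members that were near 0 or not listed without treatment and had at least 10 reads in every 5-aza library, and the last to Stag3, the member with the smallest p between the genotypes without treatment. Tuba3b lies at chr6:145615713-145616012 on the plus strand, Tuba3a at chr6:125286032-125286331 on the minus strand, and Tex19.1 at chr11:121145893-121146192 on the plus strand. Mael lies at chr1:166238695-166238994 and Taf7l at chrX:134476441-134476740, both on the minus strand, and Stag3 at chr5:138280259-138280558 on the plus strand.
Tuba3b: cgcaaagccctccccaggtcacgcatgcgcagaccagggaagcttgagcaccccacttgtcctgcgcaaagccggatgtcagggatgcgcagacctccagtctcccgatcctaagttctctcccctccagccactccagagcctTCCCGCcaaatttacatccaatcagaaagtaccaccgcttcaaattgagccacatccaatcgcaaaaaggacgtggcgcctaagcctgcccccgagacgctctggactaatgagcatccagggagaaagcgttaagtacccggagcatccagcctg
Tuba3a: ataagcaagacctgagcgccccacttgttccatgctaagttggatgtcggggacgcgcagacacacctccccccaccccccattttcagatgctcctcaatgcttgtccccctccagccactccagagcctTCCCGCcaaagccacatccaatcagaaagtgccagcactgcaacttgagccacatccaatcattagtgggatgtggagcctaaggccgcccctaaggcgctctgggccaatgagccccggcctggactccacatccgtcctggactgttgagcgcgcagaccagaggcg
Tex19.1: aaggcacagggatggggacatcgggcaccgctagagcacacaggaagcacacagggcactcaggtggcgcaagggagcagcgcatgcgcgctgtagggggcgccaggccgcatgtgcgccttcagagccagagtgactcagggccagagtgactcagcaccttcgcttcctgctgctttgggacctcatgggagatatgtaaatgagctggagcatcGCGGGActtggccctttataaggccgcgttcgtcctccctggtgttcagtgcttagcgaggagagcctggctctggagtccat
Mael: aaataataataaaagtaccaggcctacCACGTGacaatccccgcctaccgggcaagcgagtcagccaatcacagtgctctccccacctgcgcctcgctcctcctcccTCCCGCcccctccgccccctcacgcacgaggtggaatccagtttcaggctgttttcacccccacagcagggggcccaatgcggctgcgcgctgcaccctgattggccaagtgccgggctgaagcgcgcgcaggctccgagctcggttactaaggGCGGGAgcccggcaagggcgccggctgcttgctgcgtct
Taf7l: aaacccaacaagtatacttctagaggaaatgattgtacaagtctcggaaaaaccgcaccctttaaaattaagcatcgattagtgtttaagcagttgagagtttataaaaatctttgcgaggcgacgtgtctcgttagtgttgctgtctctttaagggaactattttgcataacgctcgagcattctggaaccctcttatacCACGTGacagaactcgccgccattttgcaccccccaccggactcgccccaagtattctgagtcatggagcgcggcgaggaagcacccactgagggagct
Stag3: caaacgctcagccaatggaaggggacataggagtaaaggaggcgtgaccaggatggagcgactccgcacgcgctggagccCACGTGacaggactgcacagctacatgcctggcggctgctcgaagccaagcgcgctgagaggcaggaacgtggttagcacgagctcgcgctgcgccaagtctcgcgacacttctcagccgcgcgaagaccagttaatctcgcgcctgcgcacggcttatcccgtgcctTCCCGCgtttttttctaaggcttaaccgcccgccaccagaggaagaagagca
The windows of Stag3 and Mael hold both motifs, and those of the paired tubulin genes share several stretches, among them the bases around TCCCGC. Stag3 has 30 CpG in its window, Mael 24, Taf7l 17, Tex19.1 and Tuba3b 16 each, and Tuba3a 12. All 6 lie above the median of 7 for all promoters. The 6 were not picked by a rule, and each holds a motif, so they do not stand for the set. Dpep3, Tex101, Tex19.2, Dazl and Piwil4 also had at least 10 reads in every 5-aza library and have neither motif. The window of Tex19.2 has 2 CpG.

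Most of the set was close to silent in untreated hair matrix cells. Of the 31 members in the untreated table, 21 had under 10 reads in every library, 8 had at least 10 reads in every library, and 26 had a mean under 0.1 FPKM. After 5-aza all 36 were listed, 6 with under 10 reads in every library, 24 with at least 10 in every library, and 19 with a mean under 0.1 FPKM. Sycp1, Asz1, Hormad1, Taf7l and Tuba3a were in the 5-aza table alone. The median of the members' means was 0.0840 FPKM after 5-aza and 0.0158 FPKM without treatment. Summed over the members, the libraries held 260 and 245 RPM, scaled to the reads in listed genes, in 5-aza DKO, 358 and 364 in 5-aza WT, 70.6 and 61.6 in untreated DKO, and 115 and 106 RPM in untreated WT. Both WT libraries stood above both DKO libraries in each table, and every 5-aza library stood above every untreated one. Piwil2 and Stag3, described below, made up most of the gap between the genotypes in each table. The gap was thus not shared by the whole set. Of 28 members tested after 5-aza, 9 had both DKO libraries below both WT libraries (11.6% of genes). In 6 both were above (28.0% of genes), and 13 overlapped. In bulk RNA, fewer cells of a type and less RNA per cell cannot be told apart.

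**Figure D2:**
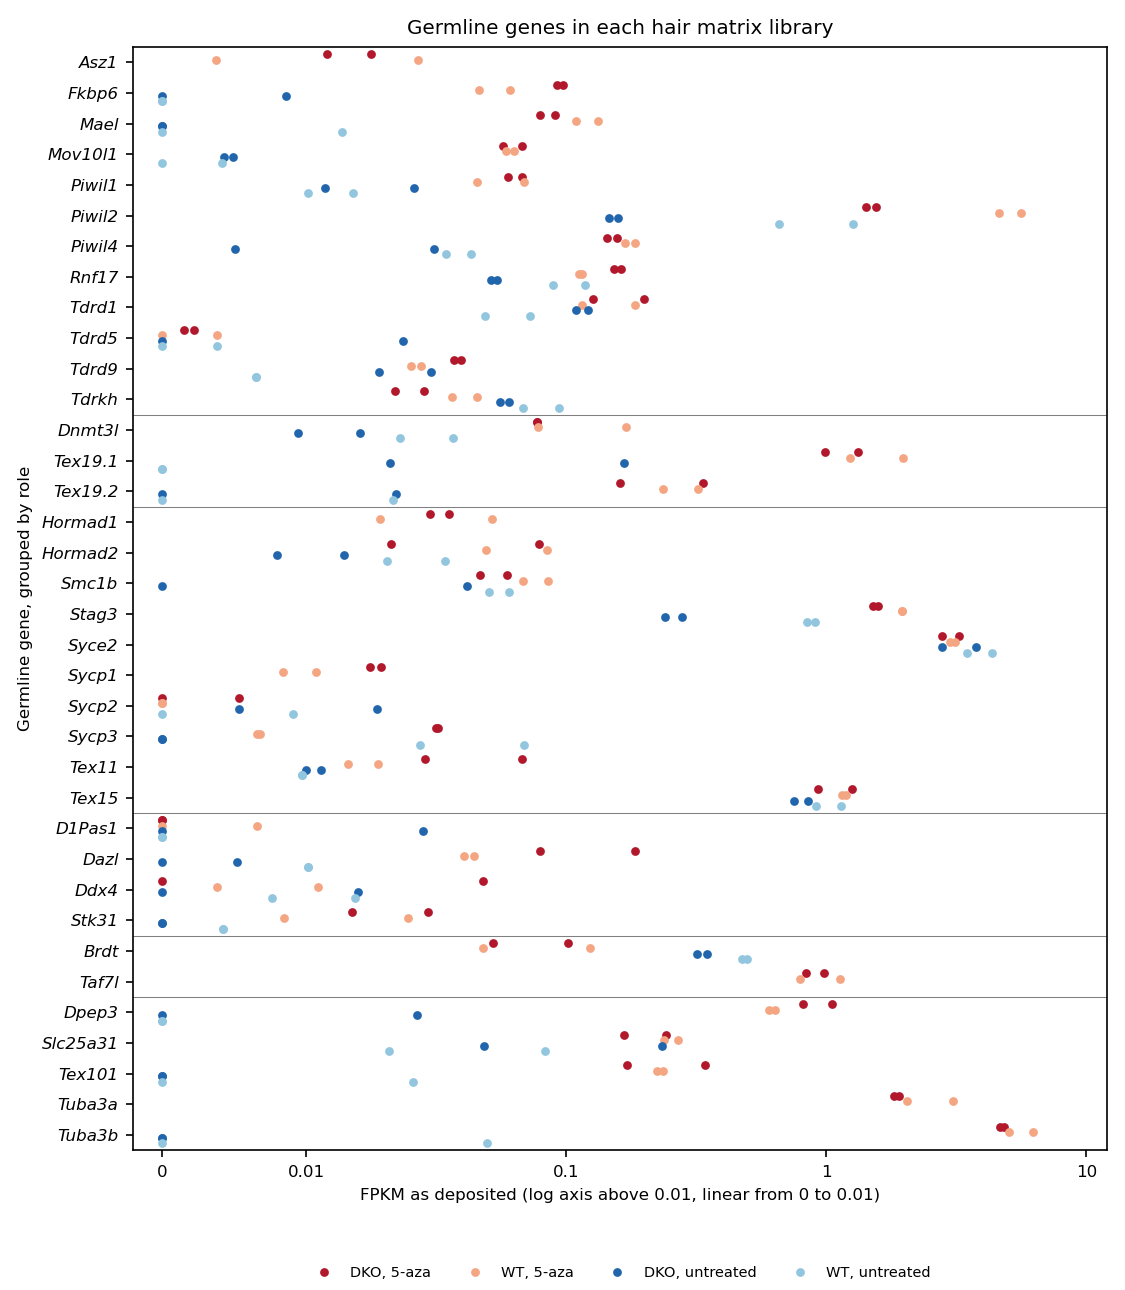
FPKM of each of the 36 members (rows, grouped by role) in each of the 8 libraries (points; dark red, 5-aza DKO; light red, 5-aza WT; dark blue, untreated DKO; light blue, untreated WT); the axis is logarithmic above 0.01 FPKM and linear below. A gene without blue points was not listed in the untreated table. For 16 members all red points lie to the right of all blue ones, while Brdt and Tdrkh show the opposite order.

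The 2 treatments stand in separate tables that were scaled separately and list different genes, so levels are set side by side here with no test. As deposited, every 5-aza library was above every untreated library for 16 of the 31 members in both tables (51.6%), against 3.5% of 26200 genes. Every 5-aza library was below every untreated one for 2 members, Brdt and Tdrkh, against 46.8% of genes. The listed genes take a smaller share of the 5-aza libraries. The 5-aza table also has rows for unaligned reads and for reads of low alignment quality, with mean signals of 5632073 and 2341211. The untreated table has neither row. Together with the other rows that name no gene and the reads in listed genes, these signals come close to the mean 5-aza library total. If the library totals count these reads, deposited FPKM stand lower after 5-aza for that alone, which was not tested. With each library rescaled to its reads in the shared genes, 22 members (71.0%) were above, against 16.7% of genes, and 1, Brdt, was below, against 20.7%. A stricter rule asked that every 5-aza library reach at least 4 times every untreated library and at least 10 reads. It held for 8 members as deposited (25.8%), against 0.21% of genes, and for 10 members after rescaling (32.3%), against 0.378%. The 8 were Dpep3, Fkbp6, Mael, Mov10l1, Tex101, Tex19.1, Tex19.2 and Tuba3b, and rescaling added Dazl and Piwil4. No member met the reverse rule, which held for 3.15% of genes as deposited and 2.32% after rescaling. Either promoter motif was found in 5 of the 10 members that met the rule after rescaling. Among the 22 other members with a window, 18 had either motif. The median of each member's highest CpG count was 17.5 in the 10 and 21.5 in the 22. The 22 include Sycp1, Asz1, Hormad1, Taf7l and Tuba3a, listed after 5-aza alone, which could not meet the rule. All of these but Asz1 hold a motif, and Taf7l and Tuba3a had at least 10 reads in every 5-aza library.

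Counts of reads show the same order without any scaling. Among the 21 members under 10 reads in every untreated library, 12 had at least 10 in every 5-aza library (57.1%), against 3.57% of the 7794 genes that were as low without treatment. Of the 4 members in both tables that were under 10 reads in every 5-aza library, 0 had at least 10 in every untreated library, against 7.04% of 8038 genes. The 5-aza libraries were deeper, with 16744915 to 23512270 reads in listed genes, against 11825515 to 14132115 without treatment. Of the 5 members in the 5-aza table alone, Taf7l and Tuba3a had at least 10 reads in all 4 libraries, against 1.35% of the 3046 genes listed there alone. The order held within each genotype: both DKO 5-aza libraries were above both DKO untreated libraries for 23 of 31 members, against 9.38% of genes, and for WT the count was 22, against 8.46%. After rescaling the counts were 25 in DKO, against 28.2% of genes, and 24 in WT, against 28.4%. Treatment, table and possibly library kit cannot be told apart here. Markers of other cells moved with them too: the 5 fibroblast markers summed to 96.2 and 139 FPKM in 5-aza DKO, 143 and 67.4 FPKM in 5-aza WT, 1323 and 1122 FPKM in untreated DKO, and 459 and 1238 FPKM in untreated WT. Their part in the result was not tested.

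**Figure D3:**
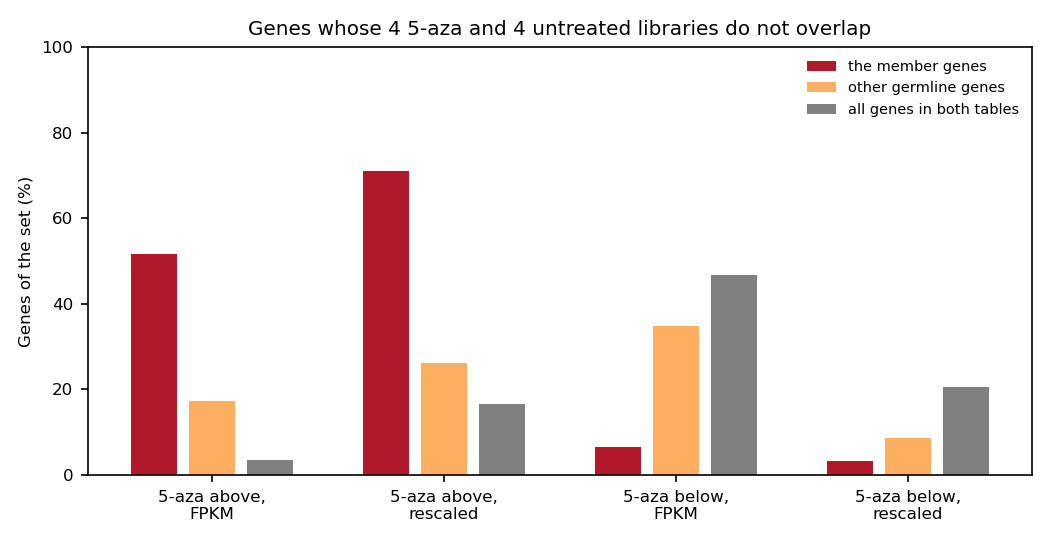
Share of genes (y axis, percent) whose 4 5-aza libraries all lie above, or all below, their 4 untreated libraries, as deposited and after rescaling to the reads of the shared genes, for the 31 member genes in both tables (red), 23 other germline genes (orange) and all 26200 genes in both tables (grey). The members exceed all genes in the classes above (51.6% against 3.5% as deposited, 71.0% against 16.7% rescaled) and fall short in the classes below.

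The tubulin genes gave the highest deposited levels among members that were near 0 or not listed without treatment. Tuba3b, an alpha-tubulin gene of the testis, was at 4.82 and 4.67 FPKM in 5-aza DKO (337 and 482 reads) and 6.23 and 5.04 FPKM in 5-aza WT (520 and 409 reads). It had 0 reads in both untreated DKO libraries and 2 and 0 reads in the untreated WT libraries. All 4 5-aza libraries lay far above all 4 untreated ones, and the DKO libraries lay below the WT libraries after 5-aza. Tuba3a, its near-identical paralog, also on chromosome 6, had 1.82 and 1.90 FPKM in 5-aza DKO (108 and 167 reads) against 3.07 and 2.05 FPKM in 5-aza WT (218 and 141 reads), and was not listed without treatment. The transcripts of the pair are 95.4% identical over 1508 aligned positions, so reads may have been split between them or set aside, and their separate levels are uncertain.

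The members that act on retrotransposons and de novo methylation all stood higher after 5-aza. Tex19.1, which restrains retrotransposons in germ cells and placenta, was at 0.991 and 1.32 FPKM in 5-aza DKO (84 and 165 reads) and 1.97 and 1.23 FPKM in 5-aza WT (199 and 121 reads). Without treatment it had 1 and 7 reads in DKO and 0 and 0 reads in WT. The genotypes overlapped after 5-aza, while the few untreated reads were all in DKO. Its paralog Tex19.2, 76.9% identical over 1202 positions, had 0.161 and 0.336 FPKM in 5-aza DKO and 0.322 and 0.235 FPKM in 5-aza WT, and at most 1 read in any untreated library. Dnmt3l, the cofactor of the de novo methyltransferases in germ cells, had 29 and 43 reads in 5-aza DKO, 35 and 74 in 5-aza WT, 2 and 3 in untreated DKO and 5 and 8 in untreated WT. Tex19.1 was thus the most abundant of the 3 after 5-aza on the deposited scale. Dnmt3l shares 67 exonic bases with Aire on the opposite strand.

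Among other germline proteins, Dpep3, a membrane dipeptidase of the testis, was at 1.05 and 0.812 FPKM in 5-aza DKO (70 and 80 reads) and 0.603 and 0.634 FPKM in 5-aza WT (48 and 49 reads). Untreated DKO libraries had 1 and 0 reads, and untreated WT libraries 0 and 0. Both 5-aza DKO libraries were above both 5-aza WT libraries, and the untreated libraries were at or near 0. The DKO mean after 5-aza was 1.51 times that of WT, a log2 difference of 0.25 ± 0.083 (SE) with an unadjusted p of 0.033 and an adjusted p of 0.512 (limma). Dpep3 shares 119 exonic bases with the opposite-strand transcript Gm45752. Tex101, a surface protein of germ cells that binds Dpep3, had 0.341 and 0.170 FPKM in 5-aza DKO and 0.236 and 0.223 FPKM in 5-aza WT, and 2 reads in 1 untreated library, a WT one. Slc25a31, the ADP/ATP carrier of sperm, was low in all libraries, with its highest level, 0.270 FPKM, in 5-aza WT and its untreated DKO libraries far apart at 0.233 and 0.0483 FPKM.

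**Figure D4:**
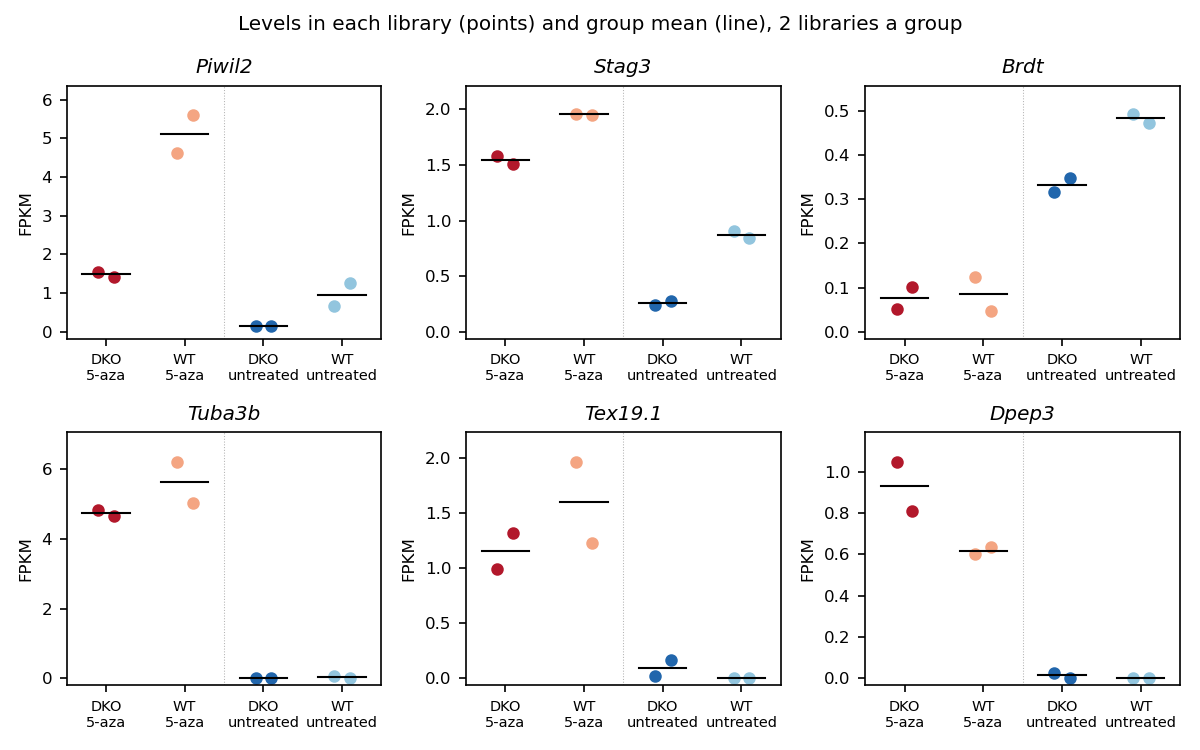
FPKM of 6 members (panels, each with its own linear axis) in each library (points) with the group mean (line), for 5-aza DKO, 5-aza WT, untreated DKO and untreated WT from left to right, 2 libraries a group. Piwil2 and Stag3 are lower in DKO than in WT in both tables, Tuba3b, Tex19.1 and Dpep3 are near 0 without treatment, and Brdt is higher without treatment.

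The piRNA genes as a group stood higher after 5-aza, with 6 of 11 above all untreated libraries as deposited, against 3.5% of genes, and 9 of 11 after rescaling, against 16.7%. In this group Piwil2 far exceeded the rest. Piwil2 encodes MILI, the PIWI protein that starts the piRNA cycle. Its level was 1.55 and 1.42 FPKM in 5-aza DKO (399 and 539 reads) against 4.63 and 5.61 FPKM in 5-aza WT (1422 and 1674 reads), and 0.145 and 0.157 FPKM in untreated DKO (21 and 20 reads) against 0.659 and 1.26 FPKM in untreated WT (98 and 187 reads). In both tables both DKO libraries lay below both WT libraries, and the untreated WT libraries were the only ones of a group that lay far apart. The DKO mean was 0.290 times WT after 5-aza and 0.158 times WT without treatment. On log2(FPKM + 1) the differences were -1.30 ± 0.10 after 5-aza and -0.75 ± 0.15 without treatment, with limma adjusted p of 0.240 and 0.227. On the reads recovered from FPKM the voom differences were -1.87 ± 0.15 and -2.62 ± 0.45, with adjusted p of 0.149 and 0.0765. The authors' deposited table gives -1.86 with an adjusted p of 8.5e-22 after 5-aza and -2.68 with 1.8e-06 without treatment.

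The other PIWI genes were lower by far. Piwil4, which encodes the nuclear PIWI protein that guides methylation of transposons, had 63 and 85 reads in 5-aza DKO, 81 and 86 in 5-aza WT, 7 and 1 in untreated DKO and 8 and 10 in untreated WT. Piwil1, the PIWI gene of later spermatocytes, had 23 and 30 reads in 5-aza DKO, 28 and 18 in 5-aza WT, and 2 to 5 in an untreated library. After 5-aza the genotypes overlapped for Piwil1, while the DKO mean of Piwil4 was 0.849 times WT. Piwil4 shares 137 exonic bases with an antisense transcript, Gm10706.

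The other piRNA factors had far fewer reads than Piwil2. Mov10l1, the helicase that feeds piRNA precursors into the pathway, had 28 to 35 reads in a 5-aza library and 0 or 1 in an untreated one. Mael, needed for transposon silencing in testis, had 10 and 17 reads in 5-aza DKO, 20 and 16 in 5-aza WT, 0 and 0 in untreated DKO and 0 and 1 in untreated WT. Fkbp6, a cochaperone of piRNA loading, had 20 and 28 reads in 5-aza DKO, 15 and 11 in 5-aza WT, 1 and 0 in untreated DKO and 0 and 0 in untreated WT. These 3 met the rule of 4 times and 10 reads in every 5-aza library. Tdrd1, a tudor scaffold of the PIWI proteins, was already present without treatment at 0.108 and 0.121 FPKM in DKO and 0.0725 and 0.0484 FPKM in WT, and had 0.198 and 0.126 FPKM in 5-aza DKO and 0.184 and 0.115 FPKM in 5-aza WT. It was the 1 tested member with both untreated DKO libraries above both untreated WT libraries. Tdrd9, a helicase of the same pathway, had 16 to 29 reads in a 5-aza library and 2 to 9 in an untreated one. Asz1 and Tdrd5 had at most 7 reads in any library. Rnf17, a tudor gene, had 0.152 and 0.162 FPKM in 5-aza DKO against 0.115 and 0.111 FPKM in 5-aza WT, and 0.0511 and 0.0539 FPKM in untreated DKO against 0.0887 and 0.117 FPKM in untreated WT. DKO libraries were thus above WT after 5-aza and below WT without treatment, a difference that was not tested.

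Tdrkh, which anchors PIWI proteins at mitochondria, was 1 of the 2 members lower after 5-aza as deposited, with 0.0284 and 0.0220 FPKM in 5-aza DKO, 0.0453 and 0.0361 FPKM in 5-aza WT, 0.0553 and 0.0602 FPKM in untreated DKO and 0.0935 and 0.0680 FPKM in untreated WT. In both tables the DKO libraries were below the WT libraries, and after rescaling the treatments overlapped. It shares 2255 exonic bases with Oaz3, a testis gene on the opposite strand, and reads of the pair cannot be told apart without strand.

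Of the meiotic chromosome genes, 2 of 8 were above all untreated libraries as deposited, against 3.5% of genes, and 4 of 8 after rescaling, against 16.7%. None of the 8 was below all untreated libraries on either scale, against 46.8% and 20.7% of genes. Stag3 had the smallest p between the untreated genotypes among the members. Stag3, the STAG subunit of meiotic cohesin, whose promoter with both motifs is printed above, was at 1.58 and 1.51 FPKM in 5-aza DKO (1290 and 1816 reads) against 1.96 and 1.95 FPKM in 5-aza WT (1913 and 1847 reads). Without treatment it was at 0.240 and 0.277 FPKM in DKO (110 and 112 reads) against 0.902 and 0.843 FPKM in WT (426 and 397 reads). Libraries within each group lay close together, DKO was below WT in both tables, and the 5-aza libraries were above the untreated ones. The DKO mean was 0.789 times WT after 5-aza and 0.296 times WT without treatment. On log2(FPKM + 1) that is -0.22 ± 0.065 and -0.57 ± 0.061, with limma adjusted p of 0.483 and 0.107. The voom fit gave -1.79 ± 0.19 without treatment with an adjusted p of 0.0212, past the threshold of 0.05, and -0.43 ± 0.070 after 5-aza with 0.267. The authors' deposited table gives -1.79 with an adjusted p of 1.3e-10 without treatment and -0.41 with 0.0948 after 5-aza. Whether the genotype difference changed with 5-aza was not tested.

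Syce2, a central element protein of the synaptonemal complex, was the 1 member with a mean over 1 FPKM without treatment. It had 3.24 and 2.77 FPKM in 5-aza DKO, 2.99 and 3.13 FPKM in 5-aza WT, 3.75 and 2.77 FPKM in untreated DKO, and 3.46 and 4.35 FPKM in untreated WT. The genotypes overlapped in both tables and so did the treatments. Tex15, which takes part in meiotic recombination and in transposon silencing with the nuclear PIWI protein, was at 1.25 and 0.924 FPKM in 5-aza DKO, 1.15 and 1.19 FPKM in 5-aza WT, 0.848 and 0.752 FPKM in untreated DKO, and 1.14 and 0.913 FPKM in untreated WT. Its genotypes overlapped after 5-aza and were apart, lower in DKO, without treatment (log2 difference -0.17 ± 0.092, limma adjusted p of 0.566). After rescaling, Tex15 was at 3.02 and 2.32 FPKM in 5-aza DKO, 2.96 and 3.15 FPKM in 5-aza WT, 1.41 and 1.24 FPKM in untreated DKO, and 2.04 and 1.47 FPKM in untreated WT. On that scale every 5-aza library of Tex15 was above every untreated one, while Syce2 still overlapped.

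The core synaptonemal genes stayed near 0. Sycp1, the transverse filament gene, had 3 to 8 reads in a 5-aza library. Sycp2, of the lateral element, had 0 to 3 reads after 5-aza and 0 to 4 without treatment. Sycp3, its partner, had 4 and 6 reads in 5-aza DKO, 1 and 1 in 5-aza WT, 0 and 0 in untreated DKO and 2 and 5 in untreated WT, and it shares 660 exonic bases with Chpt1 on the opposite strand. The axis genes Hormad1 and Hormad2 had 5 to 14 and 8 to 25 reads in a 5-aza library, and the cohesin gene Smc1b had 8 to 17. Tex11, an X-linked crossover gene, had 24 and 15 reads in 5-aza DKO against 8 and 6 in 5-aza WT, and 2 in every untreated library. At these depths a change of a few reads is within counting error.

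Of the transcription and chromatin members, Brdt ran against the set. Brdt, the testis bromodomain protein that reads acetylated histones, was at 0.0521 and 0.102 FPKM in 5-aza DKO (17 and 49 reads) and 0.123 and 0.0476 FPKM in 5-aza WT (48 and 18 reads). Without treatment it was at 0.316 and 0.347 FPKM in DKO (58 and 56 reads) and 0.493 and 0.473 FPKM in WT (93 and 89 reads). Every 5-aza library was below every untreated one, also after rescaling, and the untreated DKO libraries were below the untreated WT libraries (0.687 times, log2 difference -0.16 ± 0.052, limma adjusted p of 0.388). Taf7l, a germ cell subunit of the general transcription factor TFIID, was not listed without treatment and had 0.831 and 0.982 FPKM in 5-aza DKO (122 and 213 reads) against 1.12 and 0.793 FPKM in 5-aza WT (197 and 135 reads). Its genotypes overlapped.

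Genes of germ cell identity stayed low after 5-aza. Dazl, an RNA-binding translation factor of germ cells, had 63 and 40 reads in 5-aza DKO, 18 and 16 in 5-aza WT, 1 and 0 in untreated DKO and 2 and 2 in untreated WT. Both 5-aza DKO libraries were above both 5-aza WT libraries, by a ratio of means of 3.12, and every 5-aza library was above every untreated one. The voom difference after 5-aza was 1.33 ± 0.55 with an adjusted p of 0.600, and the authors' deposited table gives an adjusted p of 0.859. Stk31 had 4 to 12 reads in a 5-aza library and 0 or 1 in an untreated one. D1Pas1, a testis retrocopy of the helicase gene Ddx3x, had at most 2 reads.

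Compared as a set between genotypes, 0 members passed an adjusted p of 0.05 with limma in either table. After 5-aza 28 members were tested among 16856 genes, of which 0 passed (0.0%). Without treatment 8 were tested among 17339 genes, of which 1 passed (0.00577%). At an unadjusted p of 0.05 after 5-aza, 2 members were lower in DKO, Piwil2 and Stag3, against 2.3% of genes, and 1 was higher, Dpep3, against 6.64%. Without treatment 3 were lower, Stag3, Piwil2 and Brdt, against 4.73% of genes, and 0 higher, against 6.72%. The groups did not overlap, with DKO lower, for 9 of 28 members after 5-aza (11.6% of genes) and for 6 of 8 without treatment (19.3% of genes). DKO was higher without overlap for 6 of 28 after 5-aza (28.0% of genes) and for 1 of 8 without treatment (24.1% of genes). The members' median log2 difference was -0.023 after 5-aza, against 0.026 for all genes tested, and -0.16 without treatment, against 0.011. Voom called 0 members and 0 genes after 5-aza (0.0%), where 2 members had an unadjusted p under 0.05, and without treatment 1 member, Stag3, with 0.444% of genes. The authors' deposited table calls 1 of 36 members lower after 5-aza, Piwil2 (0.161% of its genes), and 2 of 31 lower without treatment, Piwil2 and Stag3 (0.486%). It calls 0 members higher in either (0.547% of genes after 5-aza and 0.793% without treatment).

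**Figure D5:**
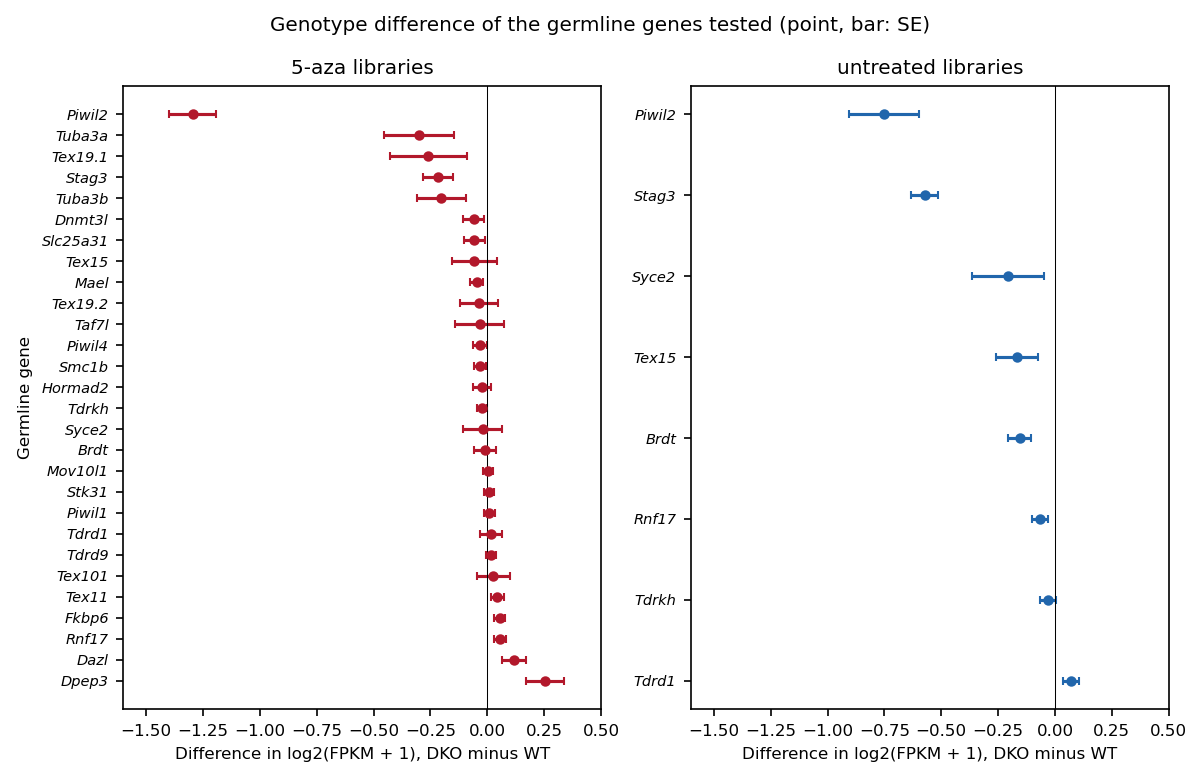
Difference in log2(FPKM + 1), DKO minus WT (x axis; points, with bars for the standard error), for the members tested in the 5-aza libraries (left, 28 genes) and in the untreated libraries (right, 8 genes). Piwil2 lies farthest left in both panels, at -1.30 and -0.75, Stag3 follows without treatment at -0.57, and Dpep3 lies farthest right after 5-aza at 0.25.

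Among markers of other skin cell types, the summed level of those of the dermal papilla was lower in untreated DKO. The 6 dermal papilla markers summed to 131 and 123 FPKM in untreated DKO against 224 and 236 FPKM in untreated WT, and 5 of the 6 were lower in DKO at an unadjusted p of 0.05 (0 at an adjusted p of 0.05 with limma, 2 with voom, and 5 in the authors' deposited table). After 5-aza their sum was 17.2 and 40.7 FPKM in DKO against 95.4 and 37.1 FPKM in WT, which overlapped. The summed levels of immune and endothelial markers were higher in untreated DKO. The 5 immune markers summed to 7.40 and 9.77 FPKM in untreated DKO against 2.26 and 3.36 FPKM in untreated WT, with 2 higher at an unadjusted p of 0.05 and 0 at an adjusted p of 0.05 by limma, 1 (Cd74) called by voom and 2 (Cd74 and H2-Aa) called in the authors' deposited table. The 4 endothelial markers summed to 2.75 and 2.03 FPKM in untreated DKO against 1.34 and 1.22 FPKM in untreated WT, with 3 higher at an unadjusted p of 0.05 and 0 at an adjusted p of 0.05 by limma. After 5-aza both sums overlapped between the genotypes, at 0.769 and 1.21 FPKM in DKO against 1.05 and 0.528 FPKM in WT for immune markers, and at 0.177 and 0.493 FPKM in DKO against 0.512 and 0.142 FPKM in WT for endothelial markers. The 6 melanocyte markers summed to 40.9 and 42.2 FPKM in untreated DKO against 33.3 and 34.9 FPKM in untreated WT. Their sum was 28.9 and 138 FPKM in 5-aza DKO against 96.3 and 21.6 FPKM in 5-aza WT. The melanocyte sums thus overlapped between the genotypes after 5-aza. Of the 9 hair matrix markers, Foxn1, Hoxc13 and Krt35 were higher in DKO at an unadjusted p of 0.05 in both tables (limma). At an adjusted p of 0.05, limma called 0 of the 9 in either table, and voom called 1, Krt35, without treatment. The authors' deposited table calls all 3 without treatment, and Hoxc13 and Krt35 after 5-aza. Of 5 inner root sheath markers, 2 were lower and 2 higher in untreated DKO at an unadjusted p of 0.05 (limma). Among the lower, Krt28 was at 1.98 and 2.85 FPKM in untreated DKO against 70.4 and 70.7 FPKM in untreated WT (limma adjusted p of 0.0235). The authors' deposited table calls Krt25, Krt27 and Krt28 without treatment and Krt28 after 5-aza. The part of all these cells in the results was not tested.

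The repressors of germline genes and the methylation machinery showed no call with an adjusted p under 0.05 in either table (limma). Of 17 genes of DNA methylation, an unadjusted p under 0.05 was reached after 5-aza by 1 lower gene, Tet3, and 1 higher gene, and without treatment by 3 lower genes, Tet3, Tet2 and Zbtb38, and 0 higher. Voom called 0 of the 17 after 5-aza and 1, Tet3, without treatment. The authors' deposited table calls Tet3 in both and Zbtb38, which binds methylated DNA, without treatment. Zbtb38 was at 1.72 and 1.31 FPKM in untreated DKO against 2.18 and 2.64 FPKM in untreated WT. The higher gene was Mbd2, a reader of methylated DNA, at 15.7 and 14.2 FPKM in 5-aza DKO against 11.5 and 10.2 FPKM in 5-aza WT (log2 difference 0.43 ± 0.096, adjusted p of 0.403). Dnmt1, the maintenance enzyme, was at 13.0 and 11.3 FPKM in 5-aza DKO, 12.2 and 12.9 FPKM in 5-aza WT, 11.9 and 11.1 FPKM in untreated DKO and 11.8 and 13.9 FPKM in untreated WT, with no clear order of the groups. Zbtb33, another reader, had a log2 difference of 0.084 without treatment, and Zbtb4 and Tet2 had 0.16 and -0.17 after 5-aza. Of 15 genes of the complex with E2F6, MGA and MAX and of 12 genes of H3K9 methylation, 0 passed even an unadjusted p of 0.05 in either direction, and voom and the authors' deposited table called 0 of either list. Their median log2 differences were 0.071 and 0.0074 after 5-aza and 0.0018 and -0.038 without treatment. In the E2F6 complex after 5-aza, the smallest p among genes lower in DKO belonged to Kdm5c and L3mbtl2, with log2 differences of -0.086 and -0.019, and among genes higher in DKO to Rybp and Max, with 0.16 and 0.10. Without treatment these were, among lower genes, the ubiquitin ligase genes Rnf2 and Ring1, with -0.30 and -0.21, and among higher genes Pcgf6 and Max, with 0.16 and 0.16. Chosen in the same way among genes of H3K9 methylation, Mphosph8 and Ehmt1 had -0.11 and -0.055 and Morc2a and the methyltransferase gene Setdb1 0.098 and 0.11 after 5-aza, and Zfp57 and Atf7ip had -0.093 and -0.14 and Ehmt2 and Trim28 0.083 and 0.12 without treatment. None of these single differences passed the test.

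FPKM of different members can be compared only with care, because the deposited gene length counts the exons of every annotated transcript. It equalled the sum over all transcripts of the GENCODE M21 annotation for 36 of 36 members and for 97.7% of 32684 genes. Divided instead by the bases that exons cover at least once, Stag3 was at 5.70 and 5.43 FPKM in 5-aza DKO and 7.07 and 7.03 FPKM in 5-aza WT. Tuba3b was at 4.81 and 4.65 FPKM in 5-aza DKO and 6.21 and 5.03 FPKM in 5-aza WT on that scale, and Piwil2 at 1.91 and 1.75 FPKM in 5-aza DKO and 5.70 and 6.91 FPKM in 5-aza WT. Stag3 was thus above Tuba3b in every 5-aza library on the covered length, and below it in every one on the deposited length. Ratios between groups for 1 gene do not depend on this length.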

How the data were processed

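RNA of 8 libraries of hair matrix keratinocytes was analysed. The submitters' processing notes name the tools Trim Galore, STAR, HTSeq and DESeq2 with no version, and as builds GRCm38 and mm10. The authors deposited 2 tables, one per treatment. The deposited library columns are FPKM by their values, since the headers give no unit: 100% of values times length are whole reads within 0.001 reads. The deposited mean column is a signal scaled by size factors. The deposited log2 fold changes were read as WT over DKO, the order in the names of the 2 tables. The column headers state no direction. They were turned round to DKO over WT. A deposited score is the test statistic, and there is a deposited p-value and adjusted p-value for each gene. The deposited length, in bases, is of another unit and was used to recover reads.

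Genes were kept if 2 or more libraries had 10 or more reads (at the median size) and the total was 15 or more, and log2(FPKM + 1) was fitted within each table with limma 3.58.1 in R 4.3.3 (trended variance, two-sided, Benjamini-Hochberg over all genes kept, threshold 0.05). The script was tested on simulated data. Fold changes on this scale understate changes of low genes. Voom on the recovered reads was an alternative. Count models on deposited counts were not used, because the columns hold scaled values and not counts. The tables list 29246 genes with 25 mitochondrial genes (5-aza) and 29647 with 0 (untreated), so 5-aza and untreated levels were not tested against each other. Rows that name no gene (5 in the 5-aza table and 3 in the untreated one) and 376 identifiers without name or FPKM in the 5-aza table were left out. The mean signal of the rows without a feature was 17730452 in the 5-aza table and 7933361 in the untreated one. Per-library values were given for members with an unadjusted p under 0.05 in either comparison and for those with the 8 highest means; further members were given after their values were seen. The members and gene lists were chosen with earlier results of these data known. Promoter windows are from RefSeq, and gene models from GENCODE M21; members' positions matched in 67 of 67 rows. The labels do not give the strand setting, and reads of overlapping genes cannot be told apart.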

Additional observations from a re-analysis of the deposited data

Results flagged for a closer look

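Rnf17, a tudor gene of the piRNA pathway, differed between the genotypes in opposite directions in the 2 tables. The DKO mean was 1.39 times the WT mean after 5-aza, with both DKO libraries above both WT libraries. Without treatment it was 0.510 times the WT mean, with both DKO libraries below both WT libraries. The difference between the treatments was not tested, and neither genotype difference passed an adjusted p of 0.05 with limma (adjusted p of 0.641 after 5-aza and 0.546 without treatment).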

How the results depend on the processing

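Without treatment, the count of genes past the adjusted p of 0.05 was 1. It was 8 with a pseudocount of 0.1, 0 with no filter, 0 with an FPKM filter of 0.1, 0 with no variance trend, 77 with voom on recovered reads, 37 with FPKM over the covered exon length (chosen after seeing the data), and 0 to 0 when each library was left out. The replicate block gave 13 genes and 0 members. Untreated libraries numbered 1 were high in Xist and those numbered 2 high in Ddx3y in both genotypes, so there the block also separates libraries by sex-linked RNA, and with it Piwil2 and Stag3 had adjusted p of 0.257 and 0.195. The count of members was 0, and 1 (Stag3) with voom. After 5-aza the count was 0 for genes and members. The labels do not say that the numbers pair the samples, and over all genes tested the deviations of same-numbered libraries correlated at 0.032 without treatment and -0.59 after 5-aza. A crossed pairing in the 5-aza table, added after seeing the data, gave 91 genes and 1 member, Piwil2. The cause of these changes was not tested.

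Leaving out 1 library reversed near-zero differences after 5-aza: the ranges were -0.061 to 0.039 for Brdt, -0.11 to 0.064 for Syce2, -0.16 to 0.088 for Taf7l and -0.17 to 0.058 for Tex15. The Piwil2 difference ranged from -2.62 to -0.53 without treatment and from -1.87 to -1.18 after 5-aza over the settings run, and Stag3 from -1.79 to -0.55 and from -0.43 to -0.20. Depth limits most members: 21 of 31 had under 10 untreated reads in every library, so that small changes were not detectable. With 2 libraries a group, no single value has a strong replicate check.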

Other observations

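Other germline genes of a wider list were described for comparison. Of 23 such genes in both tables, 4 had every 5-aza library above every untreated library as deposited (17.4%, against 3.5% of all genes), namely Syce1, Tdrd12, Terb1 and Tex14, and 6 after rescaling (26.1%, against 16.7%), with Prdm9 and Zcwpw1 added. Every 5-aza library was below every untreated one for 8 of the 23 as deposited, against 46.8% of all genes, and for 2 after rescaling, against 20.7%. None of the 23 reached 4 times every untreated library with at least 10 reads, which 0.21% of all genes did as deposited and 0.378% after rescaling. Tex14, which builds the bridges between germ cells, was at 0.427 and 0.399 FPKM in 5-aza DKO, 0.395 and 0.340 FPKM in 5-aza WT, 0.0524 and 0.149 FPKM in untreated DKO and 0.140 and 0.0766 FPKM in untreated WT. Every 5-aza library of Tex14 thus held more than any untreated one. Syce1, a central element gene, had 12 and 25 reads in 5-aza DKO, 25 and 21 in 5-aza WT, 3 and 2 in untreated DKO and 0 and 0 in untreated WT.

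Spo11, which makes the breaks that start meiotic recombination, was at 0.260 and 0.304 FPKM in 5-aza DKO against 0.116 and 0.122 FPKM in 5-aza WT (log2 difference 0.20 ± 0.035, limma adjusted p of 0.348). Nanos3, an RNA-binding protein of primordial germ cells, was at 0.575 and 0.593 FPKM in 5-aza DKO against 0.344 and 0.378 FPKM in 5-aza WT (log2 difference 0.22 ± 0.047, limma adjusted p of 0.393). The authors' deposited table and voom called 0 genes of the germline factors or of the wider list in either comparison, and limma 0 at an adjusted p of 0.05. For Spo11 and Nanos3 both 5-aza DKO libraries were above both 5-aza WT libraries, and neither passed the adjusted threshold. Of 8 germline transcription factors in both tables, 0 had every 5-aza library above every untreated one as deposited, against 3.5% of all genes. After rescaling 1 did, Mybl1, against 16.7%. Every 5-aza library was below every untreated one for 4 of the 8 as deposited, against 46.8% of all genes, and for 2 after rescaling, against 20.7%. These counts lie near the shares of all genes. The other genes with the 2 smallest p in each direction between genotypes were as follows. After 5-aza they were, among the factors, Mybl1 and Tcfl5 of those lower in DKO, with log2 differences of -0.14 and -0.20, and Tfap2c of those higher, with 0.012. In the wider list after 5-aza they were Syce1 and Henmt1 of those lower, with -0.086 and -0.026, and Mlh3 of those higher, with 0.092. Without treatment the factors were Tcfl5 and Nanos3, with -0.071 and -0.077, and Mybl1 and Tfap2c, with 0.079 and 0.093. In the wider list they were Dmc1 and Tdrd7, with -0.10 and -0.11, and Spo11 and Msh5, with 0.14 and 0.082. Stra8, the gene that starts meiosis, had at most 1 read in any library.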
